A study of Rattus norvegicus with 9 samples.

Results

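The circadian clock genes examined here are 10 of the 34267 genes in the deposited table: Per1, Per2, Per3, Cry1, Cry2, Nr1d1, Nr1d2, Dbp, Arntl and Bhlhe40. They were chosen by name, as genes of the transcription loops of the clock, and each name matched a single row. Polyadenylated RNA was sequenced from wild-type cartilage progenitor cells, grown as primary cultures from rat condylar cartilage, in 3 groups of 3 libraries. The P9 group held cells cultured to passage 9, the model of replicative senescence. In the FFSS group, cells of passage 3 were treated with flow fluid shear stress, in which liquid streams across the culture, as a model of mechanically induced degeneration. The P3 group held cells at passage 3 and served as the control for both. The study asked what the 2 models have in common. The labels give no strength or duration of the shear, no hour of harvest and no synchronisation of the cultures. Each group is therefore 1 time point of unknown phase, and a shift in the phase of a rhythm and a change in its mean level cannot be told apart. The labels do not tell whether replicates are different animals, different cultures or repeat preparations, and p-values cover the spread between these libraries only. In bulk RNA, fewer cells expressing a gene and less of its RNA per cell cannot be told apart either.

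The mammalian clock is a feedback loop of transcription that nearly every cell carries. Arntl, also called Bmal1, pairs with Clock or Npas2 and switches on genes through E-box elements, among them the Per, Cry, Nr1d and Dbp genes. The Per and Cry proteins return to the nucleus and repress Arntl and Clock, which closes the main loop. Nr1d1 and Nr1d2 (REV-ERB alpha and beta) repress Arntl, while the ROR factors activate it through the same element. Dbp activates genes through D-box elements, and Bhlhe40 (Dec1) competes for E-boxes. In cartilage the clock is known for driving daily rhythms of matrix genes, and in many cells Per1, Per2, Nr1d1 and Bhlhe40 also respond directly to serum, hormones and stress.

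The elements through which these genes are wired were looked up in the 250 bases before each RefSeq gene start (build GRCr8), which gave 10 windows for 9 members, with 2 starts for Nr1d1. The 5 windows below show 1 example or 2 of each element found, in members that the results turn on. Capitals mark the match: the E-prime box CACGTT and the D-box TTANNTAA in Per2, the E-prime box on the opposite strand in Cry2, the E-box CACGTG in Nr1d1 and Bhlhe40, and in Arntl the core AGGTCA of the element bound by ROR and REV-ERB proteins.
Per2, chr9:99496994-99497243, minus strand: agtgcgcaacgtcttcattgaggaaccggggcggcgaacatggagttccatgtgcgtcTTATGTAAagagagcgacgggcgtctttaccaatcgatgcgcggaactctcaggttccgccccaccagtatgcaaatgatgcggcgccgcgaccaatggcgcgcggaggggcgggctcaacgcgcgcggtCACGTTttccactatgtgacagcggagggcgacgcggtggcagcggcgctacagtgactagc
Cry2, chr3:98860438-98860687, minus strand: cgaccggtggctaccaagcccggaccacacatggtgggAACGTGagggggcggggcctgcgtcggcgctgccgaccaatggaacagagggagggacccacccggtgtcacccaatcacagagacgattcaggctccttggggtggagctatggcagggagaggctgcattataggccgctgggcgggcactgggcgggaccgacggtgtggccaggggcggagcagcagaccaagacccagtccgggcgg
Nr1d1, the downstream start, chr10:84229455-84229704, minus strand: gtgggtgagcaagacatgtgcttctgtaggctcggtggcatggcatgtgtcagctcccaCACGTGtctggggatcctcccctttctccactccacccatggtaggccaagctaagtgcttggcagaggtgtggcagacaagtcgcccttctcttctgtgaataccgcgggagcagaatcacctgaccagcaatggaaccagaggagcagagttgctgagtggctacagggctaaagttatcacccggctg
Bhlhe40, chr4:143174200-143174449, plus strand: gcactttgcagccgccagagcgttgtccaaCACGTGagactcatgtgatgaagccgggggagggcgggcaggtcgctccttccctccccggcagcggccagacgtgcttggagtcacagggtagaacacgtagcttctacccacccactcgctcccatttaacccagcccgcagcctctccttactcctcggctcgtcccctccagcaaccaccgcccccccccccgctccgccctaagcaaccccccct
Arntl, chr1:176766078-176766327, plus strand: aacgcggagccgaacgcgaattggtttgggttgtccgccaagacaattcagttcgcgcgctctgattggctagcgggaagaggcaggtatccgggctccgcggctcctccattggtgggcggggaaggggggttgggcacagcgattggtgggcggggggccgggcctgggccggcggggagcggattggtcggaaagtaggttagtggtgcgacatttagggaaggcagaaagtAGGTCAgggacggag

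Of the members with a window, Nr1d1 and Bhlhe40 held the E-box, a letter sequence found in 5.59% of the 33469 RefSeq windows of the same length. Per2, Cry2 and the upstream start of Nr1d1 held the E-prime box, found in 4.07% of all windows. The D-box letters stood in Per2 only among the members, 192 to 185 bases before the start, and in 5.32% of all windows. The core AGGTCA stood in Arntl, 15 to 10 bases before the start, and in Nr1d2, 187 to 182 bases before it, and in 14.1% of all windows. The cyclic AMP response element TGACGTCA was in the window of 0 of 9 members and in 1.59% of all windows. Both strands were searched and none of the matches in the members overlapped. A match describes the letters of the window and is not a measured binding site. Per1, Per3 and Dbp held none of the 5 motifs in these windows, and for Cry1 no window was analysed here.

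**Figure D1:**
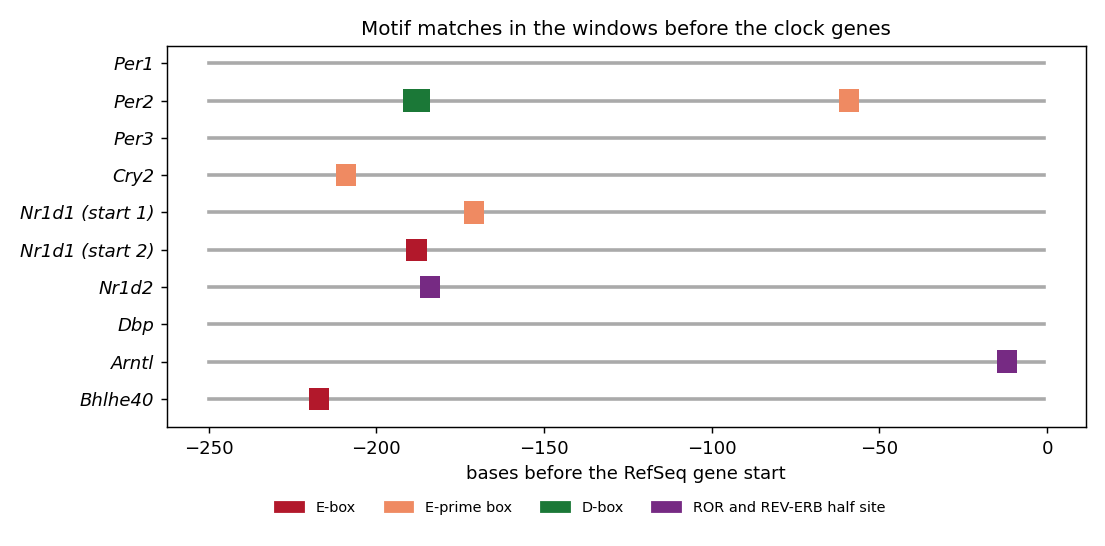
Positions of motif matches (coloured blocks) in the 250 bases before the RefSeq start of each clock gene, in bases before the start on the horizontal axis; each grey line is 1 window. Per2 holds a D-box and an E-prime box, the starts of Nr1d1 hold an E-prime box and an E-box, and Arntl holds its ROR and REV-ERB core 15 to 10 bases before the start.

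Recovered totals ran from 13264930 to 15323790 fragments per library, and the value of a member in a library rested on 105 to 7200 fragments. Values are FPKM, fragments scaled to gene length and to the size of the library, and a gene was tested where 3 or more libraries reached 1 FPKM, which held for 13059 genes. All 10 members passed. FFSS replicate 1 stood nearer to P3 than the other FFSS libraries did: across genes, its Pearson r was 0.915 and 0.947 with FFSS replicates 2 and 3, against 0.936 to 0.945 with the P3 libraries. Mitochondrial transcripts took 2.31 to 2.56% of fragments in P9, 2.96 to 3.75% in FFSS and 2.12 to 2.32% in P3. The mesenchymal markers summed to 2221 to 2520 FPKM in P9, 2801 to 3006 FPKM in FFSS and 2340 to 2371 FPKM in P3. Thy1 and Itgb1 made up most of each sum. Of the 8 tested, Eng was called lower in P9 than in P3 (log2 fold change -1.01, adjusted p = 0.0149) and 0 higher. In FFSS against P3, Thy1, Eng, Pdgfra and Pdgfrb were called higher and 0 lower, where 11.4% of all tested genes were called higher. Of the cartilage markers, Acan, the aggrecan gene, was higher in P9 than in P3 (log2 fold change 2.12, adjusted p = 0.000288) and lower in FFSS than in P3 (-1.68, adjusted p = 0.000827). Sox9, the chondrogenic regulator, was higher in FFSS than in P3 (1.29, adjusted p = 0.00338). The other tested cartilage markers, Comp and Prg4, lay lower in P9 without a call. Comp had 0.887 to 3.11 FPKM in P9 and 6.39 to 7.27 FPKM in P3 (-1.62, adjusted p = 0.0702). Prg4 had 0 to 0.0778 FPKM in P9 and 0.798 to 9.28 FPKM in P3 (-2.31, adjusted p = 0.174). Prg4 was called lower in P9 than in FFSS (-3.52, adjusted p = 0.0206). The part of these markers in the clock gene values was not tested. Col2a1, the main cartilage collagen, lay at 0 to 0.191 FPKM in P9, 0.0297 to 0.378 FPKM in FFSS and 0.703 to 1.06 FPKM in P3, and Matn1 was listed at 0 in every library. Endothelial and epithelial markers stayed below 1 FPKM in sum in every library. Of the skeletal muscle markers, Acta1 had 35.1 to 42.5 FPKM in P9, 0.233 to 1.48 FPKM in FFSS and 2.45 to 13.8 FPKM in P3. It was called higher in P9 than in P3 (2.38, adjusted p = 0.0132) and lower in FFSS than in P3 (-2.16, adjusted p = 0.0136). Mylpf reached 1.31 FPKM at most, and Myod1, Myog, Ckm and Actn3 stayed below 1 FPKM.

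Most clock genes had higher FPKM in the libraries of shear-stressed cells than in those of P3. Of the 10 members, 7 rose in FFSS against P3 (Per2, Per3, Cry2, Nr1d1, Nr1d2, Dbp and Bhlhe40) and 0 fell, with limma and a Benjamini-Hochberg adjusted p under 0.05 across all genes. Among all tested genes, 21.8% were called in this comparison, 11.4% higher and 10.4% lower. The same 7 members had every FFSS library above every P3 library, which held for 20.1% of all tested genes, while 22.3% had every FFSS library below and 42.4% did not overlap in either direction. The median log2 fold change, which is a difference of mean log2(FPKM + 1), was 1.41 over the 10 members and -0.01 over all tested genes. Only Cry1 was called in P9 against P3, and it was lower, where 9.83% of all tested genes were called, 5.39% higher and 4.44% lower. The median was -0.21 over the members and -0.00262 over all tested genes.

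**Figure D2:**
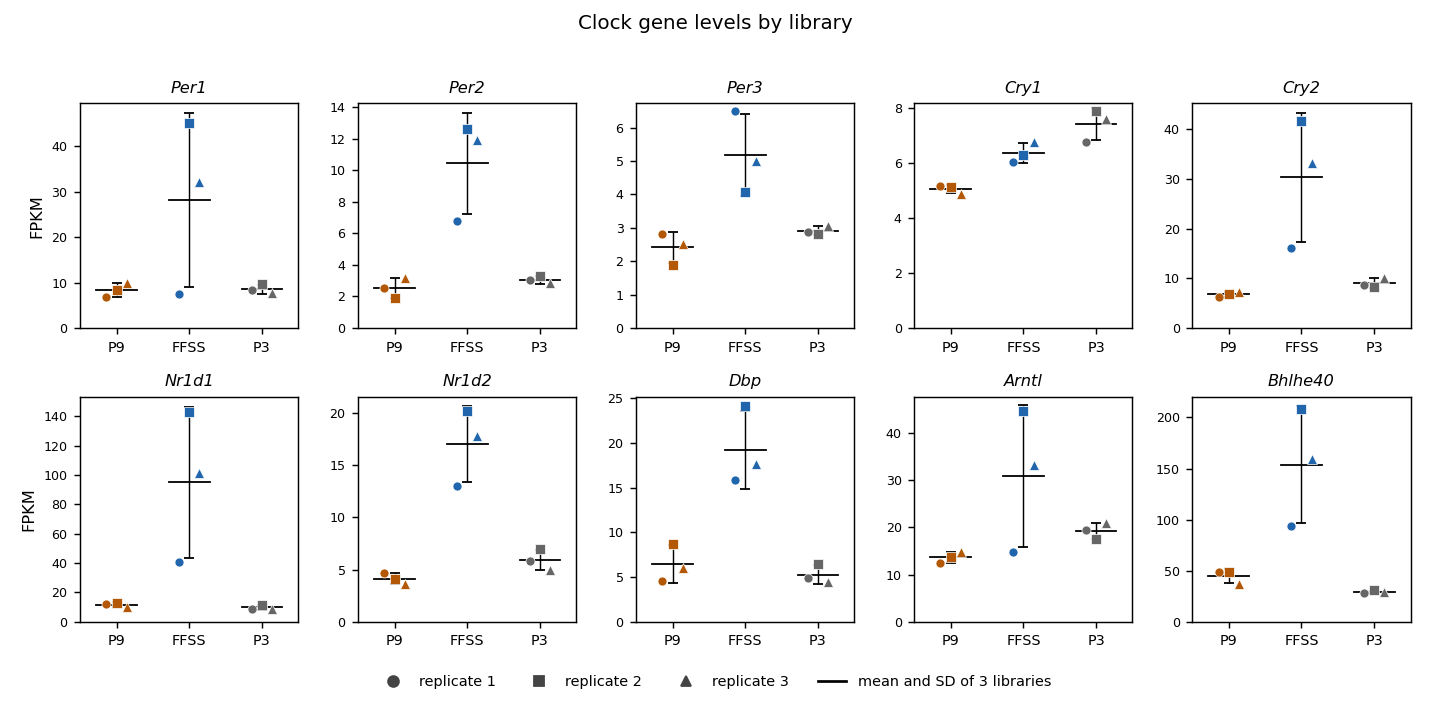
FPKM of each of the 10 clock genes in every library (vertical axis, linear, from 0), by group on the horizontal axis; symbols are replicates, the horizontal line is the mean and the bar the SD of 3 libraries. The 3 FFSS libraries lie above the P3 libraries in 7 genes, while FFSS replicate 1 lies below them for Per1 (7.45 FPKM), Cry1 (6.06 FPKM) and Arntl (14.8 FPKM).

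Nr1d1, the nuclear receptor REV-ERB alpha that represses Arntl, showed the largest change of the members under shear. It had 40.8, 143 and 101 FPKM in FFSS replicates 1 to 3, against 8.82, 11.5 and 8.93 FPKM in the P3 libraries. Every FFSS library thus exceeded every P3 library, and the FFSS libraries spread widely among themselves. The group means were 94.9 ± 51.2 FPKM in FFSS and 9.74 ± 1.497 FPKM in P3 (SD, n = 3 each), a ratio of 9.74 and a log2 fold change of 2.99 with a standard error of 0.38 (adjusted p = 0.00182). This placed Nr1d1 at rank 44 of 13059 tested genes by log2 fold change. The gene lies on Rnor_6.0 chromosome 10 at 86683875 to 86690815, minus strand. It shares 1059 bases with Thra, a thyroid hormone receptor gene on the opposite strand, and the strandedness of the counting is not given in the sources used here, so reads of the pair cannot be fully told apart. Thra stood at 21.0, 30.1 and 25.8 FPKM in FFSS, against 15.1, 12.2 and 13.8 FPKM in P3. No other member overlapped an annotated gene.

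Nr1d2, its close relative REV-ERB beta, followed with a smaller change. It had 13.0, 20.2 and 17.8 FPKM in FFSS, against 5.82, 6.92 and 4.97 FPKM in P3, with no overlap between the groups. The log2 fold change was 1.37 with a standard error of 0.18 (adjusted p = 0.00215). Nr1d2 lies on chromosome 15 at 8730871 to 8757165, plus strand.

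Bhlhe40, the E-box repressor Dec1, was the most abundant member in all 3 groups. It had 94.2, 208 and 159 FPKM in FFSS, against 28.6, 30.8 and 28.9 FPKM in P3. The FFSS libraries all lay above the narrow range of P3, and the mean was 5.23 times that of P3 (log2 fold change 2.28, standard error 0.25, adjusted p = 0.00107). Bhlhe40 lies on chromosome 4 at 140703619 to 140709319, plus strand.

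The Per genes encode the repressors that pair with Cry proteins. Per2 had 6.76, 12.6 and 11.9 FPKM in FFSS, against 3.05, 3.30 and 2.82 FPKM in P3, and rose by a log2 fold change of 1.45 with a standard error of 0.23 (adjusted p = 0.00431). Even the lowest FFSS library stood well above the highest of P3. Per3, the member least needed for the rhythm in mice, had 6.50, 4.07 and 5.00 FPKM in FFSS, against 2.86, 2.83 and 3.06 FPKM in P3. It was the only member whose highest FFSS library was replicate 1. Its log2 fold change was 0.64 (adjusted p = 0.0325). Leaving out FFSS replicate 3 (adjusted p = 0.0835) or P3 replicate 1 (0.103), 2 (0.0992) or 3 (0.0805) ended the call. Per1, the Per gene that responds fastest to stimuli, had 7.45, 45.1 and 32.1 FPKM in FFSS, against 8.46, 9.64 and 7.66 FPKM in P3. FFSS replicate 1 lay just below every P3 library, and the other FFSS libraries lay far above them. The log2 fold change of 1.30 (95% interval 0.12 to 2.48) did not pass (adjusted p = 0.105). Without FFSS replicate 1 it was 2.03 (adjusted p = 0.000180). Per1 lies on chromosome 10 at 55687050 to 55695994, plus strand, Per2 on chromosome 9 at 98555169 to 98597359, minus strand, and Per3 on chromosome 5 at 168086998 to 168123395, minus strand.

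The cryptochrome genes, which encode the stronger repressors of the loop, parted. Cry2 had 16.1, 41.7 and 33.3 FPKM in FFSS, against 8.58, 8.35 and 10.2 FPKM in P3, and all FFSS libraries lay above all P3 libraries. Its log2 fold change was 1.55 with a standard error of 0.29 (adjusted p = 0.00789). Cry1 had 6.06, 6.30 and 6.79 FPKM in FFSS, against 6.77, 7.92 and 7.61 FPKM in P3. The Cry1 groups overlapped, and the log2 fold change of -0.19 (95% interval -0.44 to 0.06) did not pass (adjusted p = 0.245). Cry2 lies on chromosome 3 at 81314149 to 81344110, minus strand, and Cry1 on chromosome 7 at 24534615 to 24634097, plus strand.

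Dbp, the D-box activator that is a direct output of Arntl and Clock, had 15.9, 24.2 and 17.6 FPKM in FFSS, against 4.90, 6.43 and 4.46 FPKM in P3. The groups were apart by a wide margin, with a log2 fold change of 1.68 and a standard error of 0.24 (adjusted p = 0.00270). Arntl, the activator itself, had 14.8, 44.6 and 33.3 FPKM in FFSS, against 19.5, 17.5 and 20.9 FPKM in P3. As with Per1, FFSS replicate 1 lay below every P3 library and replicates 2 and 3 above them, and the log2 fold change of 0.52 (95% interval -0.21 to 1.26) did not pass (adjusted p = 0.269). Without FFSS replicate 1 it was 0.97 (adjusted p = 0.00167). Dbp lies on chromosome 1 at 101687855 to 101692846, plus strand, and Arntl on the same chromosome at 178039063 to 178137465, plus strand.

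**Figure D3:**
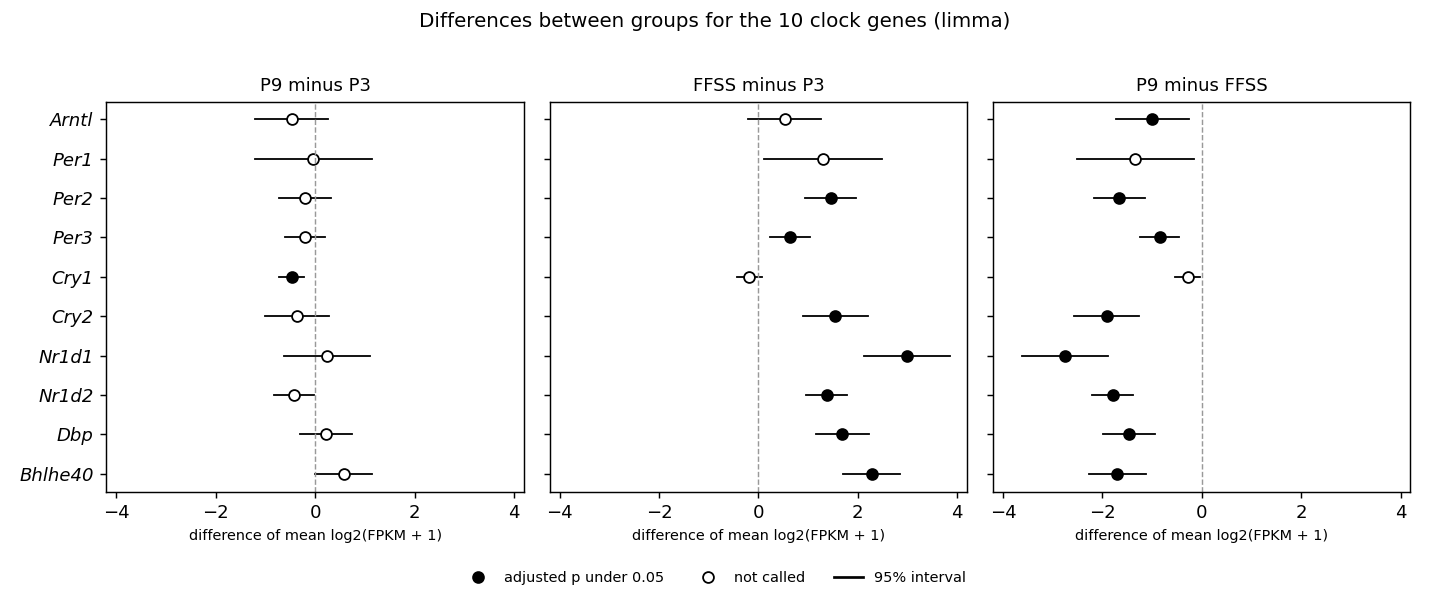
Difference of mean log2(FPKM + 1) between groups for each clock gene (horizontal axis), with 95% intervals from limma; filled points have an adjusted p under 0.05. Under shear Nr1d1 reached 2.99 and Bhlhe40 2.28 relative to P3, while at passage 9 the filled point is that of Cry1 at -0.47.

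Within the FFSS group, replicate 1 was the lowest library for 9 of 10 members and replicate 2 the highest for 8 of 10. Relative to the mean of P3, Nr1d1 stood at 4.19, 14.7 and 10.4 in FFSS replicates 1 to 3, and Bhlhe40 at 3.20, 7.08 and 5.41. For Per1 the same ratios were 0.867, 5.26 and 3.74, and for Arntl 0.767, 2.31 and 1.72. Of the 7 members called higher, 6 stayed called without any single library, and Per3 was the exception.

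Leukocyte markers moved with the shear comparison. Their summed level was 42.2 to 105 FPKM in FFSS, against 9.60 to 11.1 FPKM in P3, and both tested markers of the 6 in the table, Cd68 and Cd14, were called higher. Most of the sum was Cd14, at 39.9 to 94.3 FPKM in FFSS, against 8.76 to 9.86 FPKM in P3. The defining leukocyte marker Ptprc stayed at or below 0.0400 FPKM in FFSS and 0.0268 FPKM in P3, and Cd3e was listed at 0 in every library. Csf1r and Lyz2, myeloid markers that were not tested, were above the P3 libraries in FFSS replicates 2 and 3. Csf1r had 0.0840, 3.17 and 2.08 FPKM in FFSS, against 0.0182 to 0.187 FPKM in P3, and Lyz2 had 0.0562, 5.36 and 2.94 FPKM in FFSS, against 0.171 to 0.305 FPKM in P3. FFSS replicate 1, the lowest FFSS library for both, was also the lowest for 9 of 10 clock genes. Across all tested genes, too, this library stood nearer to P3 than FFSS replicates 2 and 3 did. The part of these markers and of the mitochondrial share in the clock gene values was not tested.

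Ratios between clock genes within a library do not depend on the scaling of that library. The pairs were chosen after the levels were seen, and most set a gene called higher in FFSS over one not called. Such ratios largely restate the levels, and those that share Arntl are not independent of each other. How often the ratios of other gene pairs were apart was not computed. Nr1d1 over Arntl was 2.76, 3.20 and 3.04 in FFSS replicates 1 to 3, against 0.453, 0.656 and 0.427 in P3. FFSS replicate 1, low in both genes, was close to its fellow libraries in this ratio. The ratio of Dbp to Arntl was 1.07, 0.541 and 0.530 in FFSS, against 0.251, 0.368 and 0.213 in P3, and here replicate 1 was the highest. Per2 over Arntl ran from 0.283 to 0.457 in FFSS and from 0.135 to 0.189 in P3. Cry2 over Cry1 ran from 2.66 to 6.62 in FFSS and from 1.05 to 1.34 in P3. Of 8 ratios computed, 6 had FFSS and P3 libraries that did not overlap, these 4 and those of Nr1d2 to Arntl and Arntl to Clock. Per1 over Arntl overlapped, with 0.503 to 1.01 in FFSS and 0.366 to 0.552 in P3, and so did Nfil3 over Dbp, with 1.27 to 2.48 in FFSS and 1.88 to 2.03 in P3. In P9, Nr1d1 over Arntl was 0.961, 0.956 and 0.673, all above the P3 libraries and below the FFSS libraries.

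**Figure D4:**
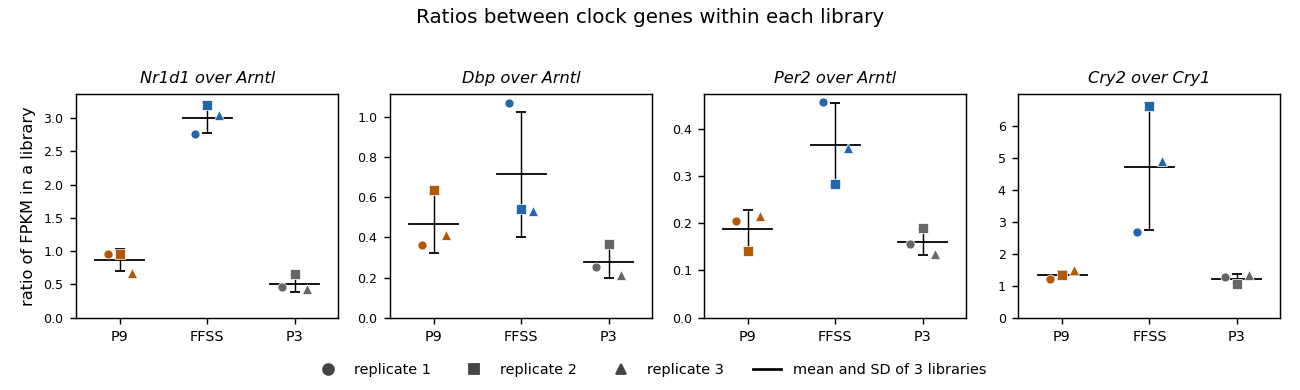
Ratio of the FPKM of a pair of clock genes within each library (vertical axis, linear, from 0), by group; symbols are replicates, the line is the mean and the bar the SD of 3 libraries. Nr1d1 over Arntl lies between 2.76 and 3.20 in the FFSS libraries, while those of P3 lie between 0.427 and 0.656.

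At passage 9 only Cry1 passed the test against passage 3. Cry1 had 5.17, 5.14 and 4.89 FPKM in P9, against 6.77, 7.92 and 7.61 FPKM in P3. The P9 libraries agreed closely and all lay below P3, with a log2 fold change of -0.47 and a standard error of 0.11 (adjusted p = 0.0297). Cry1 was no longer called without P9 replicate 1 (adjusted p = 0.0649), 2 (0.105) or 3 (0.0909), or without P3 replicate 1 (0.0715), 2 (0.120) or 3 (0.124). Arntl had 12.5, 13.7 and 14.7 FPKM in P9, against 19.5, 17.5 and 20.9 FPKM in P3, with no overlap. Its log2 fold change of -0.47 did not pass (95% interval -1.21 to 0.26, adjusted p = 0.443), in a fit whose spread includes the FFSS libraries. Without FFSS replicate 1 the same difference was called (adjusted p = 0.0420). Bhlhe40 had 48.4, 48.5 and 37.0 FPKM in P9, against 28.6, 30.8 and 28.9 FPKM in P3, and its log2 fold change of 0.58 did not pass (95% interval 0.00 to 1.15, adjusted p = 0.213). This difference too was called without FFSS replicate 1 (adjusted p = 0.0253).

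The remaining 7 members gave no call at passage 9. Nr1d1 had 12.0, 13.1 and 9.90 FPKM in P9, against 8.82, 11.5 and 8.93 FPKM in P3 (log2 fold change 0.24, 95% interval -0.62 to 1.10, adjusted p = 0.774). Its groups overlapped, as did those of Dbp, which had 4.52, 8.71 and 6.03 FPKM in P9, against 4.90, 6.43 and 4.46 FPKM in P3 (log2 fold change 0.22, 95% interval -0.31 to 0.75). Nr1d2 had 4.63, 4.14 and 3.64 FPKM in P9, against 5.82, 6.92 and 4.97 FPKM in P3. The Nr1d2 libraries of P9 all lay below P3, and the log2 fold change of -0.42 (95% interval -0.83 to -0.01) passed before and not after adjustment (adjusted p = 0.201). Cry2 had 6.30, 6.79 and 7.23 FPKM in P9, against 8.58, 8.35 and 10.2 FPKM in P3, again without overlap (log2 fold change -0.37, 95% interval -1.02 to 0.29, adjusted p = 0.507). Per1 had 6.86, 8.47 and 9.83 FPKM in P9, against 8.46, 9.64 and 7.66 FPKM in P3, and Per2 had 2.55, 1.93 and 3.18 FPKM in P9, against 3.05, 3.30 and 2.82 FPKM in P3. Both overlapped, and the 95% intervals of their log2 fold changes ran from -1.22 to 1.14 for Per1 and from -0.72 to 0.31 for Per2. Per3 had 2.82, 1.90 and 2.52 FPKM in P9, against 2.86, 2.83 and 3.06 FPKM in P3 (log2 fold change -0.21, adjusted p = 0.544). In all, 6 of 10 members had groups that did not overlap, 5 of them lower in P9. Among all tested genes, 19.1% had every P9 library below every P3 library, 20.9% had every P9 library above, and 40.1% did not overlap in either direction.

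The direct comparison of the models tests whether passage and shear left these genes at different levels. Of the 10 members, 8 were lower in P9 than in FFSS and 0 higher, where 31.4% of all tested genes were called, 15.3% lower and 16.1% higher. In 9 members, Per1 excepted, every P9 library lay below every FFSS library, which held for 20.0% of all tested genes, while 22.2% had every P9 library above and 42.2% did not overlap in either direction. The comparisons of P9 and of FFSS with P3 share the P3 libraries, so they are not independent of each other. Nr1d1 averaged 11.7 ± 1.62 FPKM in P9 and 94.9 ± 51.2 FPKM in FFSS (SD, n = 3 each), a log2 fold change of -2.76 (adjusted p = 0.00107). Nr1d2 averaged 4.13 ± 0.495 FPKM in P9 and 17.0 ± 3.66 FPKM in FFSS (log2 fold change -1.79, adjusted p = 0.000207). Cry2 was lower by a log2 fold change of -1.91 (adjusted p = 0.00160), Bhlhe40 by -1.70 (0.00153) and Per2 by -1.66 (0.00105). For Dbp and Per3 the differences were -1.46 (adjusted p = 0.00219) and -0.85 (0.00725).

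Arntl was also lower in P9 than in FFSS (log2 fold change -0.997, adjusted p = 0.0447). The libraries were only narrowly apart, with 14.7 FPKM in the highest of P9 and 14.8 FPKM in FFSS replicate 1. Arntl was no longer called without P9 replicate 1 (adjusted p = 0.117), 2 (0.101) or 3 (0.0822), FFSS replicate 2 (0.117) or 3 (0.136), or P3 replicate 1 (0.0676), 2 (0.0646) or 3 (0.0653). Per1 (log2 fold change -1.33, 95% interval -2.51 to -0.15, adjusted p = 0.0806) and Cry1 (-0.28, 95% interval -0.53 to -0.03, adjusted p = 0.0826) did not pass. Both were called without FFSS replicate 1, with adjusted p of 9.23e-05 for Per1 and 0.0480 for Cry1.

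Bhlhe40 was the most abundant and Per3 the least abundant by mean FPKM in each group. Arntl ranked above Nr1d1 in P9 and in P3, at 13.6 ± 1.13 against 11.7 ± 1.62 FPKM in P9 and 19.3 ± 1.73 against 9.74 ± 1.497 FPKM in P3 (SD, n = 3), and the libraries of the pair did not overlap in P3. In FFSS, Nr1d1 stood above Arntl in every library. Cry1 ranked 9 of 10 in FFSS and 6 in P3, and Dbp ranked 6 in FFSS and 8 in P3. The next genes by level in FFSS, Arntl at 30.9 ± 15.1 FPKM, Cry2 at 30.4 ± 13.0 FPKM and Per1 at 28.2 ± 19.1 FPKM, did not differ beyond their spread. In P3 the neighbours Nr1d1, Cry2 and Per1, at 9.74 ± 1.497, 9.03 ± 0.992 and 8.59 ± 0.993 FPKM, were likewise within their spread between libraries. Within each P3 library, however, Nr1d1 stood above Per1, while the order of Cry2 against either gene varied.

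Other genes of the clock were read from a list of 24, of which 23 were in the table and 18 were tested. In FFSS against P3, 7 of the 18 rose, among them Npas2, Bhlhe41, Rora, Nfil3, Ciart and Usp2, and 0 fell, where 11.4% of all tested genes were called higher, with a median log2 fold change of 0.29. Without FFSS replicate 1, 9 were called higher and 3 lower, and without FFSS replicate 3 or any single P3 library 5 were called higher. Calls over all genes moved too, from 2845 of 13059 with every library to 5022 of 12870 without FFSS replicate 1. They were 1398 without FFSS replicate 3 and 1178 to 1476 without a P3 library. In P9 against P3, Npas2 alone was called, and it was lower (median -0.09), where 5.39% of all tested genes were called higher and 4.44% lower. Without FFSS replicate 1, Ciart and Rora were also called lower and Timeless higher, and without FFSS replicate 2 Timeless was also called higher. Over all genes, 2228 were called in P9 against P3 without FFSS replicate 1 and 1658 without FFSS replicate 2, against 1284 with every library. Npas2 and Clock are the alternative partners of Arntl. Npas2 had 2.08, 2.36 and 2.97 FPKM in P9, 17.4, 25.9 and 23.6 FPKM in FFSS and 9.52, 8.69 and 11.1 FPKM in P3. The 3 groups did not overlap, and Npas2 was called in each comparison: lower in P9 than in P3 (log2 fold change -1.64, adjusted p = 0.000774), higher in FFSS than in P3 (1.10, adjusted p = 0.00456), and lower in P9 than in FFSS (-2.74, adjusted p = 2.16e-05). Clock had 11.6, 9.42 and 7.57 FPKM in P9, 6.45, 10.01 and 9.10 FPKM in FFSS and 9.65, 10.8 and 10.5 FPKM in P3. Its groups overlapped, with log2 fold changes of -0.12 in P9 (adjusted p = 0.764) and -0.27 in FFSS (adjusted p = 0.323) against P3.

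Rora, the ROR factor that activates Arntl, had 10.3, 26.3 and 23.6 FPKM in FFSS, against 4.93, 5.02 and 5.89 FPKM in P3 (log2 fold change 1.65, adjusted p = 0.00669). Rorb stayed below 1 FPKM in every library. The repressors Nr1d1 and Nr1d2 and the activator Rora of the same element all rose. Nfil3, which represses through the D-box that Dbp activates, had 20.1, 59.9 and 42.2 FPKM in FFSS, against 9.92, 12.1 and 8.81 FPKM in P3 (log2 fold change 1.77, adjusted p = 0.00853). Of the PAR bZIP relatives of Dbp, Tef did not pass (log2 fold change 0.02, adjusted p = 0.924) and Hlf stayed below 1 FPKM in every library. Bhlhe41 (Dec2), the relative of Bhlhe40, had 54.7, 45.7 and 61.8 FPKM in FFSS, against 20.8, 15.8 and 22.0 FPKM in P3 (log2 fold change 1.43, adjusted p = 0.00963). In Bhlhe41, unlike in Bhlhe40, FFSS replicate 1 lay between its fellow libraries.

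Ciart, a repressor of Arntl and Clock, had 2.66, 16.5 and 9.88 FPKM in FFSS, against 1.45, 1.75 and 1.76 FPKM in P3 (log2 fold change 1.74, adjusted p = 0.0315). Its call was lost without FFSS replicate 2 (adjusted p = 0.0717) or 3 (0.103) or P3 replicate 1 (0.0959), 2 (0.0843) or 3 (0.0803). Usp2, a deubiquitinase of the Per and Cry proteins in mice, had 8.15, 24.2 and 20.7 FPKM in FFSS, against 6.04, 7.67 and 5.84 FPKM in P3 (log2 fold change 1.195, adjusted p = 0.0325). The Usp2 call was lost without FFSS replicate 2 (adjusted p = 0.0865) or 3 (0.112), P3 replicate 1 (0.0994), 2 (0.0683) or 3 (0.0985), or P9 replicate 2 (0.0515). The kinases of the Per proteins, Csnk1d and Csnk1e, did not pass in FFSS or P9 against P3. In P9 against FFSS, 7 of the 18 were lower, the same genes as above, and Cipc (0.48 on the log2 scale, adjusted p = 0.0147), Csnk1a1 (0.46, 0.0101) and Timeless (1.13, 0.00330) were higher. Of all tested genes, 15.3% were called lower and 16.1% higher in this comparison. The Usp2 call in this comparison (log2 fold change -1.36, adjusted p = 0.0139) was lost without FFSS replicate 3 (adjusted p = 0.0564).

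**Figure D5:**
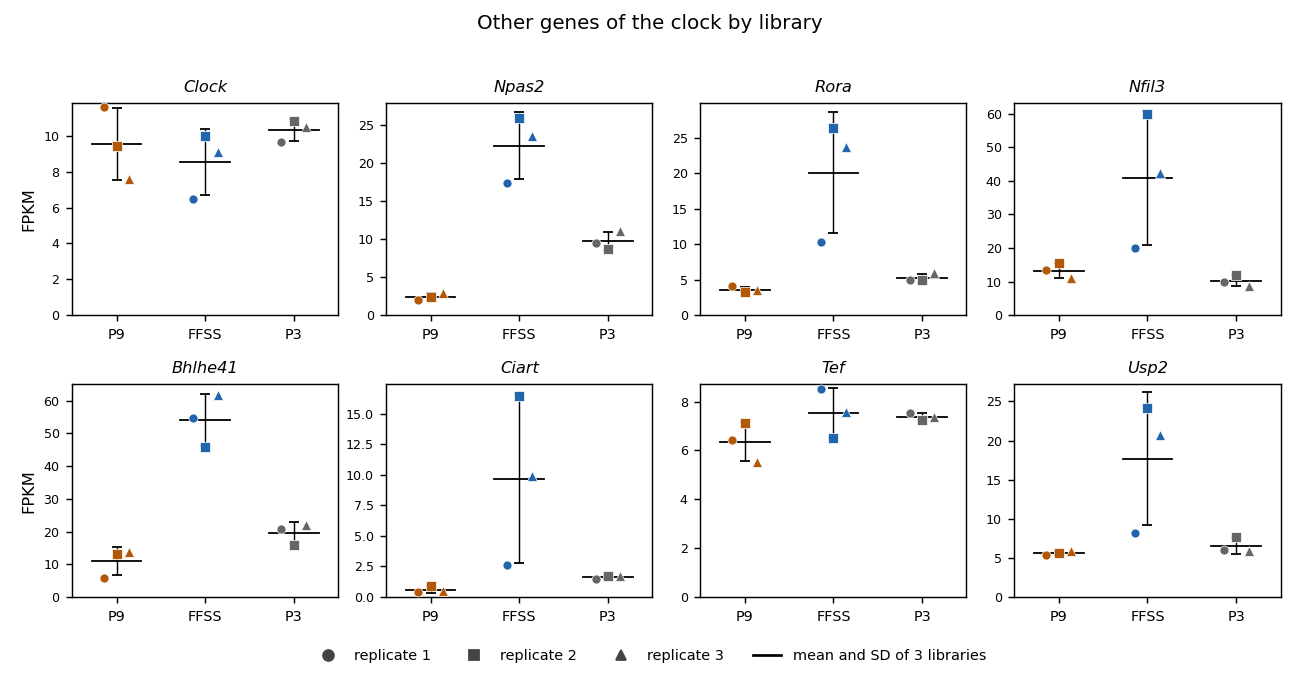
FPKM of 8 other genes of the clock in every library (vertical axis, linear, from 0), by group; symbols are replicates, the line is the mean and the bar the SD of 3 libraries. Npas2 is lowest in P9 (2.08 to 2.97 FPKM) and highest in FFSS (17.4 to 25.9 FPKM), while Clock overlaps between the groups.

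Signals known to induce Per genes directly were read from lists of their standard targets. Of 11 tested targets of cyclic AMP and CREB, the pathway that acts on the Per1 promoter, 10 rose in FFSS against P3 and 0 fell (median log2 fold change 1.92), where 11.4% of all tested genes were called higher. Fos had 154, 302 and 245 FPKM in FFSS, against 3.37, 3.83 and 3.50 FPKM in P3 (log2 fold change 5.63, adjusted p = 8.8e-06). Fosb rose by 6.73 and Nr4a1 by 3.61 on the log2 scale, each with an adjusted p of 9.57e-06. All 3 are immediate early genes, which respond to many stimuli besides cyclic AMP. In P9 against P3, Dusp1 of this list rose, and Nr4a1 and Pde4b fell, where 5.39% of all tested genes were called higher and 4.44% lower. Pde4b (log2 fold change -0.77, adjusted p = 0.0111) was not called without P9 replicate 2 (adjusted p = 0.0549) or P3 replicate 1 (0.0599). The log2 fold change of Nr4a1 was -0.72 (adjusted p = 0.0350), and it was no longer called without P9 replicate 1 (adjusted p = 0.116), 2 (0.112) or 3 (0.0543), FFSS replicate 3 (0.0608), or P3 replicate 1 (0.134) or 2 (0.127).

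The genes whose pattern over the 9 libraries lay nearest to that of a called member were found by the root mean square distance of centred log2(FPKM + 1), and nothing about shared function is drawn from it. Nearest to Nr1d1 were Fst (distance 0.29) and Tnip3 (0.29), against a spread of 1.43 for Nr1d1 about its own mean. Nearest to Bhlhe40 were Jun (0.17) and Klf10 (0.17), against 1.01. Jun had 75.2, 199 and 156 FPKM in FFSS, against 30.2, 27.3 and 30.1 FPKM in P3. For Per2 they were Zfand2a and Rida (0.13 and 0.15, against 0.78), for Cry2 Rora and Kcnk5 (0.13 and 0.14, against 0.89), and for Nr1d2 Elmsan1 and Parp8 (0.13 and 0.15, against 0.79). The members themselves and genes without a usual symbol were left out of the candidates, so no member could be the neighbour of another. Among the genes left, Cry2 was the 1 member whose nearest gene, Rora, was on the list of other clock genes. For Dbp the nearest was Zfp36l1 (0.18, against 0.79), and the pairs were for Arntl Sec16b and Taf7 (0.08 and 0.11, against 0.56), for Per3 Adam17 and Ptgfrn (0.08 and 0.11, against 0.40), and for Cry1 Hyou1 and Fgd6 (0.08 and 0.08, against 0.20).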

How the data were processed

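Polyadenylated RNA of 9 rat libraries (3 each of P9, FFSS and P3) was measured. Per the submitters' processing notes, reads were handled with HISAT2 2.0.5 and featureCounts 1.5.0-p3 on Rnor_6.0; settings and strandedness are not given in the sources used here. The values deposited by the authors are FPKM. Each value times gene length was a whole multiple of 1 step per library (100% within 0.01 of a step), which gave fragments. With no fragments seen, 3 remain possible, 0.186 to 0.220 FPKM on 1 kilobase; this covers counting error only, since fragments are not independent molecules.

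A gene entered where 3 or more libraries reached 1 FPKM. limma 3.58.1 (R 4.3.3) modelled log2(FPKM + 1) as means of 3 groups over all 9 libraries with trended variance (6 residual and 2.93 prior degrees of freedom), two-sided, adjusted over 13059 genes. Fold changes on this scale understate changes of low genes. Scripts were tested on simulated data. Tables used Python 3.11.15, pandas 2.3.3 and NumPy 2.4.6, figures matplotlib 3.10.9. Promoter windows came from RefSeq (GRCr8); Arntl is listed there as Bmal1.

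Named were all members, Clock, Npas2, each called gene of the other clock list, up to 3 called genes with the smallest adjusted p of each input or output list, and the 2 nearest genes of each called member; genes named beyond this were chosen after their values were seen, and a few genes that the rule names are not reported here. The members and lists were chosen with earlier results of these data known.

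Alternatives were a pseudocount of 0.1, no filter, a filter of 5 FPKM, library totals, voom on the recovered fragments, only the groups compared, a replicate block, and leaving out each library.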

Additional observations from a re-analysis of the deposited data

How the results depend on the processing

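Of the members called higher in FFSS against P3, Bhlhe40, Cry2, Dbp, Nr1d1, Nr1d2 and Per2 were called under every alternative run. Per3 was not called with no filter (adjusted p = 0.0672) or with only the groups compared (0.0513), and was not tested with a filter of 5 FPKM. Arntl in P9 against FFSS was not called with no filter (0.0800) or with only the groups compared (0.0976). With only the P9 and P3 libraries fitted, 3 members (Arntl, Bhlhe40 and Cry1) and 2466 genes in all were called, against 1 and 1284; with only P9 and FFSS, 2537 genes were called, against 4100. Leaving out 1 library at a time gave 0 to 3 members in P9 against P3, 6 to 9 in FFSS against P3 and 7 to 10 in P9 against FFSS. Over all genes it gave 589 to 2228, 1178 to 5022 and 2566 to 5876 calls in the same order. Leaving out a library removes degrees of freedom, and 2 libraries remain in that group. The Per1 log2 fold change in P9 against P3, -0.04, turned to 0.0067 with library totals, 0.084 without P9 replicate 1 and 0.040 without P3 replicate 2 (-0.15 to 0.084 without single libraries), and was called under none of the alternatives. The cause was not tested.

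Same-numbered libraries of different groups deviated from their group means with correlations from -0.0408 to 0.0331. Not every library correlated best with its own number. The labels do not say whether replicate numbers mark pairs, and deviations about means of 3 libraries cannot exclude it. With the replicate block, 0, 7 and 8 members and 982, 2265 and 3629 genes were called in P9 against P3, FFSS against P3 and P9 against FFSS; in P9 against P3 the block gave an adjusted p of 0.0727 for Cry1, 0.0533 for Nr4a1 and 0.0643 for Klf10. With library totals the median log2 fold change of all genes was 0.04, -0.01 and 0.05 in P9 against P3, FFSS against P3 and P9 against FFSS. Ciart was not called with voom (0.0675), no filter (0.0659) or only the groups compared (0.0703), and Usp2 with no filter (0.0642) or only the groups compared (0.0752). Fkbp5 in FFSS against P3 was not called with no filter (0.0672) or only the groups compared (0.0791), nor in P9 against FFSS were Cipc (0.0654) and Csnk1a1 (0.0506) with only the groups compared. In P9 against P3, Nr4a1 was not called with no filter (0.0583), nor Klf10 with no filter (0.0858) or voom (0.0698). Of the 18 other clock genes, 5 were called higher in FFSS against P3 with no filter or only the groups compared. With only the groups compared, 4 were called in P9 against P3 (Ciart, Npas2 and Rora lower, Timeless higher), and voom called Timeless there beside Npas2. The smallest member value rested on 105 fragments.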

Other observations

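Of 10 tested glucocorticoid receptor targets, a list chosen because glucocorticoids reset clocks outside the brain, 6 rose in FFSS against P3 and Fkbp5 fell, where 11.4% of all tested genes were called higher and 10.4% lower, with a median log2 fold change of 1.22. Mt2A and Mt1, metallothionein genes that zinc and other metals also induce, rose by 4.76 and 3.398 on the log2 scale (adjusted p = 3.04e-06 and 0.000102). Sgk1, a kinase gene, had 67.1, 190 and 138 FPKM in FFSS, against 25.6, 26.4 and 25.3 FPKM in P3 (log2 fold change 2.19, adjusted p = 0.00327). Fkbp5, a chaperone gene named after its values were seen, had 11.7, 3.32 and 6.40 FPKM in FFSS, against 17.1, 13.2 and 16.4 FPKM in P3 (log2 fold change -1.15, adjusted p = 0.0344). Fkbp5 was no longer called without FFSS replicate 2 (adjusted p = 0.0508) or 3 (0.0926), P3 replicate 1 (0.109), 2 (0.0710) or 3 (0.0992), or P9 replicate 2 (0.0542) or 3 (0.0521). In P9 against P3, Mt2A fell (log2 fold change -1.90, adjusted p = 0.000347) and Pdk4 rose, where 5.39% of all tested genes were called higher and 4.44% lower.

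Of 11 tested genes whose rhythm the clock sets in several tissues, Usp2, Klf10 and Klf9 rose in FFSS against P3 and 0 fell, a count to be read against the 11.4% of all tested genes called higher and 10.4% called lower, with a median log2 fold change of 0.38. Usp2 was also on the list of other clock genes, and Klf9 and Pdk4 were also on the glucocorticoid list. The counts of these lists are therefore not separate. Klf10 had 17.5, 33.6 and 26.4 FPKM in FFSS, against 4.07, 5.16 and 4.87 FPKM in P3 (log2 fold change 2.19, adjusted p = 0.000620). Klf9 (log2 fold change 0.78, adjusted p = 0.0134) lost its call without FFSS replicate 3 (adjusted p = 0.0517) or P3 replicate 1 (0.0509) or 3 (0.0524). The other 8 genes did not pass, with log2 fold changes of -0.10 for Wee1, -0.06 for Nampt, -0.01 for Rhobtb1, 0.0028 for Pdk4, 0.11 for Por, 0.38 for Lonrf3, 0.58 for Herpud1 and 0.89 for Tspan4. In P9 against P3, Pdk4 rose (log2 fold change 1.12, adjusted p = 0.0156; 0.0530 without P9 replicate 2, 0.0643 without P9 replicate 3 and 0.0516 without P3 replicate 1). Klf10 rose too (0.78, adjusted p = 0.0490), a call that was lost without P9 replicate 1 (adjusted p = 0.145), 2 (0.131) or 3 (0.112), P3 replicate 1 (0.181), 2 (0.0997) or 3 (0.132), or FFSS replicate 3 (0.0777). Of all tested genes, 5.39% were called higher and 4.44% lower in P9 against P3.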
